A study of Mus musculus with 4 samples.

Results

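Fibroblast growth factors (FGFs), their receptors and the inhibitors that the pathway induces against itself were examined in the mouse mammary gland with and without the membrane-anchored matrix metalloproteinase Mt1-mmp. The members were all genes with the symbol Fgf followed by digits, the receptor genes Fgfr1 to Fgfr4 and Fgfrl1, Spry1 to Spry4, Spred1 to Spred3, Dusp4, Dusp6, Etv4, Etv5, Klb and Frs2, each represented by its brightest probe set annotated to a single gene. The array annotation gave 39 members among 17097 genes. Frs2, the docking adaptor of the receptors, was not analysed here, as the annotation paired no probe set with it alone. The samples were intact inguinal mammary glands of mice at postnatal day 10. Global knockouts, written Mt1-mmp(-/-), were compared with Mt1-mmp(+/+) littermates, both on an outbred Swiss Black background. Each genotype had 2 arrays, labelled as biological replicates, and neither sex nor pooling of animals was given. In the knockout the protease was missing from every cell of the mouse, so the design does not separate epithelium from stroma. The whole gland was homogenised, and in such bulk RNA fewer cells of a type and less RNA per cell cannot be told apart.

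FGFs are secreted proteins that bind heparan sulfate and activate receptor tyrosine kinases, which signal through Ras and the MAP kinase cascade. In the mammary gland, Fgf7 and Fgf10 are known as ligands made by the stroma and fat pad, and the epithelial splice form of their receptor Fgfr2 is known to act in bud development and duct branching. Signalling induces its own brakes, the Sprouty and Spred proteins and the phosphatases Dusp4 and Dusp6, and the Ets transcription factors Etv4 and Etv5, so their transcripts are commonly used as readouts of FGF and related receptor signals.

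To show the regulatory sequence upstream of the stromal ligands and of the epithelial receptors, and of the ligand with the widest gap between genotypes, the 250 bases before the annotated start are given for 5 members, 5' to 3' on the gene's strand, from RefSeq on GRCm38.p6. Capitals mark the GC box GGGCGG or its reverse complement CCGCCC. Fgf7 lies on the plus strand at chr2:126034408-126034657, Fgf10 on the plus strand at chr13:118714449-118714698, Fgf18 on the minus strand at chr11:33147401-33147650, Fgfr2 on the minus strand at chr7:130266809-130267058, and the more upstream of the annotated starts of Fgfr3 on the plus strand at chr5:33721474-33721723.
Fgf7: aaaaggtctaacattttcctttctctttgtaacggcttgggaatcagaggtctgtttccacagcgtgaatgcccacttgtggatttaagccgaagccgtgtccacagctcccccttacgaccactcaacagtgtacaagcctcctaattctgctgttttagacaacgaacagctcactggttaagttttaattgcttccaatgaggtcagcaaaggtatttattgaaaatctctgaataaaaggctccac
Fgf10: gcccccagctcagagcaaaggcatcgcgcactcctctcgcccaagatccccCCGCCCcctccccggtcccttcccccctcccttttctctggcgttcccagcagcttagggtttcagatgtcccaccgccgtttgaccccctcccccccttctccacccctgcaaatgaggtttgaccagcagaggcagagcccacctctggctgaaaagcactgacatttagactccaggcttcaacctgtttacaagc
Fgf18: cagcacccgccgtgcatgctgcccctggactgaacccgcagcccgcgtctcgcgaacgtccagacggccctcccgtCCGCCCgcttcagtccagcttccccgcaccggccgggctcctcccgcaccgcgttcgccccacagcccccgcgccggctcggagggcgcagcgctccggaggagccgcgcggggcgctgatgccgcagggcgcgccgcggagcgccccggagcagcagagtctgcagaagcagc
Fgfr2: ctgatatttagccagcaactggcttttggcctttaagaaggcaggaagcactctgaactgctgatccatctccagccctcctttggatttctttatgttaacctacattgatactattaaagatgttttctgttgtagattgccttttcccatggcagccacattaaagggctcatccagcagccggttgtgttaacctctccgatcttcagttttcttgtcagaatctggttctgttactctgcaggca
Fgfr3: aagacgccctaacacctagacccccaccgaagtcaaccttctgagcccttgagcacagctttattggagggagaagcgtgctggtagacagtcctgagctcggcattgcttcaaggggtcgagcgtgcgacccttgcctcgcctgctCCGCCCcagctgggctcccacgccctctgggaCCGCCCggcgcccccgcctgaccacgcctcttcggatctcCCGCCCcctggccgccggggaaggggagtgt
The windows of Fgf7 and Fgfr2 held 0 GC boxes, those of Fgf10 and Fgf18 held 1 and that of Fgfr3 held 3. Of the 36 windows of 28 members with an entry, 63.9% held a GC box, against 32.7% of all 32851 windows of this length, a description in which several windows can belong to 1 gene. The Ets core CCGGAA, searched on both strands, was found in 4 of the members' 36 windows (11.1%) and in 3952 of all 32851. None of the windows of the 7 inhibitor and Ets genes with an entry (Spry1, Spry2, Spred1, Spred2, Spred3, Dusp6 and Etv5) held it, which says only that these letters are not in these windows.

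Array values are log2 expression values, so a difference of 1 is a doubling. Array medians lay between 4.92 and 4.98. Members were tested when their mean over the 4 arrays reached 4.94, the median over all probe sets, below which differences are compressed. The targeted gene, listed as Mmp14, read 8.92 and 8.73 in wild type and, in the knockout, 5.83 and 5.68. Markers of the labelled tissue were at or above the limit in every array, for luminal epithelium 12 to 16 of 17, for basal epithelium 11 or 12 of 12, for fibroblasts 12 or 13 of 13 and for white fat cells 10 or 11 of 11, although the oestrogen receptor gene Esr1 was under it throughout (3.91 to 4.13). Of the 15 luminal epithelial markers that were tested 11 were higher in both knockout arrays than in both wild-type arrays, where 26.3% of all tested genes were. The luminal levels, summed after reversing the log2, came to 2260 and 1215 in wild type and, in the knockout, 3371 and 2550. Markers of tissue next to the gland differed between arrays of the same genotype. The summed linear level of 18 skeletal muscle markers was 512 and 3190 in wild type and, in the knockout, 498 and 47813, and that of 15 epidermis and hair follicle markers was 1061 and 3568 against 13420 and 718. Knockout replicate 2 thus stood apart in muscle genes and knockout replicate 1 in skin genes. The 13 fibroblast markers summed to 33036 and 30567 in wild type and, in the knockout, 30125 and 25838. Of these markers 6 were lower in both knockout arrays and 1 was higher in both, where 32.5% of all tested genes were lower and 26.3% higher. The part of the fibroblast markers in the member values was not tested.

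**Figure D1:**
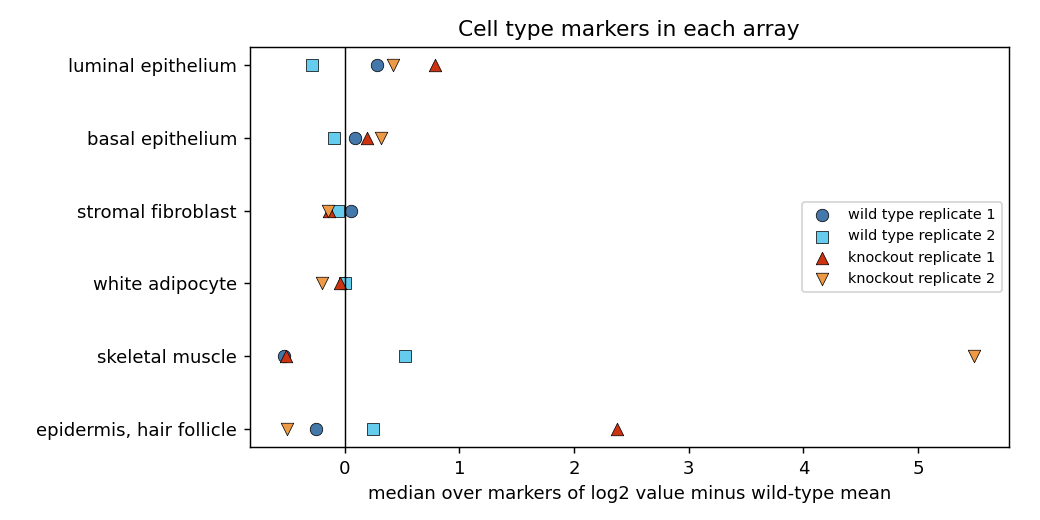
Median over the markers of each cell type of the log2 value minus the wild-type mean of the same gene (horizontal axis), 1 symbol per array. Knockout replicate 2 lies at 5.49 for skeletal muscle and knockout replicate 1 at 2.37 for epidermis and hair follicle. The medians of fibroblast and fat cell markers lie close to 0 in all arrays, although single markers such as Lep differ more.

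Between the genotypes the stromal ligands Fgf7 and Fgf10 were level, while the receptors Fgfr1, Fgfr2 and Fgfr3 averaged 0.50 to 0.60 higher in the knockout on the log2 scale. The inhibitors Spry1, Spry2 and Spry4 averaged lower, at -0.20, -0.22 and -1.01, and the Ets gene Etv5 higher, by 0.38. None of these differences passed the test across all genes. Of the 39 members, 19 reached the brightness limit and 20 did not, which is 48.7% tested against 64.8% of all genes. The secreted ligands were mostly under the limit (4 of 18 tested), the receptors (4 of 5) and feedback inhibitors (7 of 9) mostly above it. No member was called: with limma and Benjamini-Hochberg adjustment over 11078 genes, 0 of 19 members and 0% of all tested genes passed 0.05 in either direction, and the smallest adjusted p among members was 0.115, for Fgfr1. At an unadjusted limma p under 0.05, 1 member was higher (Fgfr1) and 2 were lower (Fgf13 and Spry4), against 9.69% of all tested genes higher and 12.1% lower. The genotypes did not overlap for 5 members higher in both knockout arrays and 6 lower in both, where 26.3% of all tested genes were higher and 32.5% lower in this sense. These shares are close to the background. They include Fgf4, among the higher, and Fgf11, among the lower, which reached the brightness limit only through the genotype with the higher values. The median log2 difference, knockout minus wild type, was -0.02 over the 19 members and -0.02 over all tested genes, and the median size of a difference without its sign was 0.22 and 0.21. All member differences below are therefore values that did not pass the threshold.

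**Figure D2:**
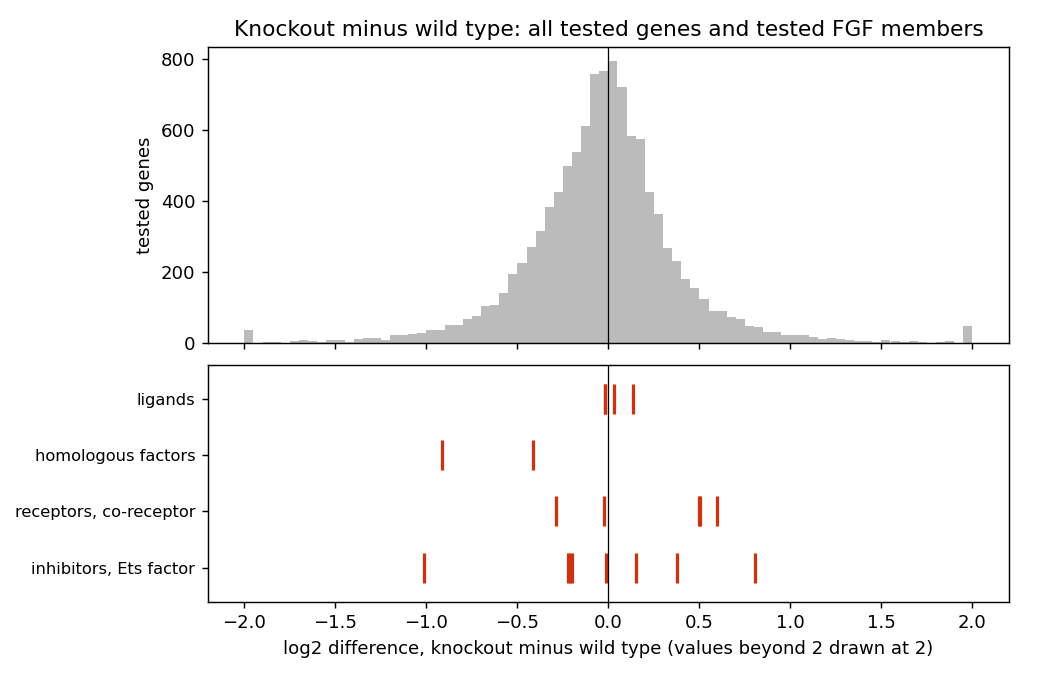
Upper panel, number of tested genes by log2 difference between knockout and wild type; lower panel, the 19 tested members by role, 1 tick each. The members lie between -1.01 for Spry4 and 0.80 for Dusp4, inside the wider range of all tested genes, with the ligands near 0 and Fgfr1, Fgfr2 and Fgfr3 at 0.50 to 0.60.

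The stromal ligands Fgf7 and Fgf10 were at nearly the same level in both genotypes. Fgf10, a ligand known from mammary bud and duct development, read 5.41 and 5.53 in wild type and, in the knockout, 5.39 and 5.51. Fgf7, keratinocyte growth factor, read 5.02 and 5.09 against 5.12 and 5.06. For both genes the genotypes overlapped. The log2 difference was -0.02 for Fgf10, with a 95% limma interval of -0.32 to 0.28, and 0.03 for Fgf7, with an interval of -0.23 to 0.30. Both probe sets read only slightly above the brightness limit, within the range of 3.20 to 7.03 (median 3.69) that the array's 23 control probe sets for nonspecific binding covered, so a true difference may be compressed. All values of Fgfr3 and 3 of the 4 values each of Fgfr2 and Etv5, described below, lay in that range too. So did all values of Fgf1, Fgf4, Fgf11, Fgf18 and Il17rd and the dimmer probe sets of Fgfr1 and Spry4. Fgf13 in knockout replicate 2 (6.49) and Spry4 in knockout replicate 1 (6.99) also lay in it. Fgf2, a ligand of the extracellular matrix without a classical secretion signal, was under the limit in all arrays, with 3.80 and 3.91 in wild type and, in the knockout, 3.72 and 3.91, and was not tested. Fgf9, a ligand of lung and gonad development, was likewise under it, between 4.60 and 4.68 in all arrays.

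Fgf18, a ligand best known from cartilage, bone and the hair cycle, was the secreted ligand with the widest gap. It read 5.36 and 5.36 in wild type and, in the knockout, 4.40 and 4.49, so both knockout arrays were lower, by 0.92 on average. Its mean of 4.90 lay just under the limit of 4.94, with wild type above and the knockout below it, and it was therefore not tested in the comparison above. With no brightness filter, over 17097 genes, the limma p of Fgf18 was 0.00035 and its Benjamini-Hochberg adjusted p was 0.101, which did not pass. In that setting 6 of 39 members had an unadjusted p under 0.05, 2 higher (Fgfr1 and Etv5) and 4 lower (Fgf18, Fgf13, Spry2 and Spry4), against 7.88% of all genes higher and 9.31% lower. The 2 knockout arrays differed by 0.09 in Fgf18.

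Among the ligands just inside the limit, Fgf1, which binds all FGF receptors, read 5.09 and 4.89 in wild type and, in the knockout, 4.85 and 5.09, and the genotypes overlapped. Fgf4, a ligand of the early embryo and limb bud, read 4.90 and 4.93 in wild type and, in the knockout, 5.03 and 5.07. Both knockout arrays were higher, by 0.13 on average (SE 0.09, n = 2 per group, limma adjusted p = 0.441). Fgf4 reached the limit only through its knockout arrays, so this test says little about a difference. Its other probe sets, all under the limit, differed by 0.003, 0.067 and -0.026, with overlapping genotypes. The remaining canonical ligands Fgf3, Fgf5, Fgf6, Fgf8, Fgf16, Fgf17, Fgf20 and Fgf22 and the endocrine ligands Fgf15, Fgf21 and Fgf23, which act on distant organs through Klotho proteins, were all under the limit, with differences of -0.10 (Fgf21) to 0.14 (Fgf22). Of these, Fgf3 (0.13), Fgf6 (0.09) and Fgf22 (0.14) were higher in both knockout arrays. Fgf3 had another probe set of almost the same brightness that was lower in both, with a difference of -0.16. Values so near the floor of the array say little about either genotype.

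The intracellular FGF homologous factors do not signal through FGF receptors but bind voltage-gated sodium channels and, for Fgf13, microtubules. Fgf13 and Fgf11 were tested and both averaged lower in the knockout, but Fgf11 reached the limit only through its wild-type arrays. Fgf13 read 7.74 and 7.62 in wild type and, in the knockout, 7.04 and 6.49. Both knockout arrays were lower, and they differed from each other by 0.55. The log2 difference was -0.91 ± 0.22 (SE, n = 2 per group), or 1.88-fold, with a limma adjusted p of 0.157. With knockout replicate 1 left out Fgf13 passed at a limma adjusted p of 0.00822, and with knockout replicate 2 left out at 0.0397, each fit taking the spread of the single knockout array from the wild-type pair. In those fits 24.6% and 4.99% of all tested genes were called lower, so such a call is common. A further Fgf13 probe set lay under the limit and differed by -0.05. Fgf11 read 5.05 and 5.46 against 4.83 and 4.85, lower in both knockout arrays, but its wild-type arrays differed by 0.40, as much as the genotypes (-0.41 ± 0.17, SE, n = 2 per group, limma adjusted p = 0.267). Fgf12 and Fgf14 were under the limit, at differences of 0.03 and 0.05.

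**Figure D3:**
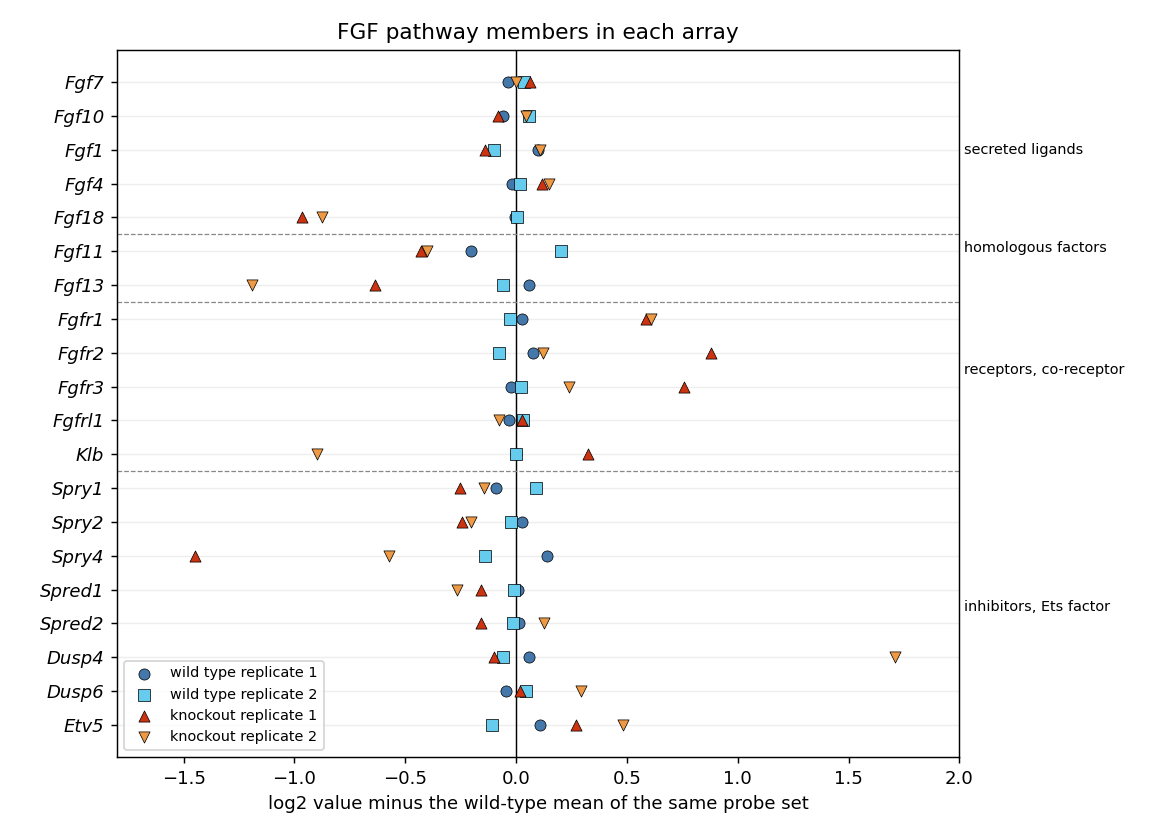
Log2 value of each of the 19 tested members and Fgf18 in each array, minus the wild-type mean of the same probe set (horizontal axis), by role. Both knockout arrays lie at about 0.60 for Fgfr1 and below -0.87 for Fgf18, whereas for Klb and Dusp4 the 2 knockout arrays lie far apart.

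The receptor tyrosine kinase genes Fgfr1, Fgfr2 and Fgfr3 were each higher in both knockout arrays. Fgfr1, the receptor expressed in mesenchyme, fat cell precursors and also in mammary epithelium, read 9.12 and 9.07 in wild type and, in the knockout, 9.68 and 9.71. Both knockout arrays were higher, and arrays of one genotype differed by only 0.05 and 0.03. The log2 difference was 0.60 ± 0.09 (SE, n = 2 per group), or 1.51-fold, with a limma adjusted p of 0.115. With knockout replicate 1 left out Fgfr1 passed at a limma adjusted p of 0.0152, and with knockout replicate 2 left out at 0.0367, fits in which 13.1% and 6.73% of all tested genes were called higher. Over the settings with all 4 arrays its adjusted p ranged from 0.101 with an intensity trend to 0.376 without probe sets that match several transcripts. All 3 Fgfr1 probe sets were above the limit and higher in both knockout arrays, with differences of 0.60, 0.26 and 0.46, and the dimmer ones read 6.02 and 5.69 against 6.11 and 6.13, and 5.06 and 4.83 against 5.38 and 5.42. The summed linear level of the luminal epithelial markers was also higher in both knockout arrays (3371 and 2550 against 2260 and 1215). Of the 15 tested luminal markers 11 were higher in both and 0 were lower in both, beside 26.3% and 32.5% of all tested genes. The part of the luminal markers in the Fgfr1 values was not tested.

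Fgfr2, the receptor for Fgf7 and Fgf10 in its epithelial form, read 6.80 and 6.65 in wild type and, in the knockout, 7.60 and 6.84. Knockout replicate 1 stood 0.88 above the wild-type mean, and knockout replicate 2 lay 0.12 above the wild-type mean, less than the 0.15 between the wild-type arrays. The log2 difference was 0.50 ± 0.29 (SE, n = 2 per group, limma adjusted p = 0.381). It was 0.88 without knockout replicate 2 and 0.12 without knockout replicate 1. Fgfr3, an epithelial receptor known for restraining bone growth, was likewise highest in knockout replicate 1, with 5.66 and 5.70 against 6.44 and 5.92, a difference of 0.50 ± 0.21 (SE, n = 2 per group, limma adjusted p = 0.270). Here both knockout arrays stood above wild type by more than its arrays differed, 0.76 and 0.24 against 0.04. The Fgfr3 difference was 0.76 without knockout replicate 2 and 0.24 without knockout replicate 1.

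The array in which Fgfr2 and Fgfr3 were highest, knockout replicate 1, was also highest in the luminal markers (summed linear level 3371, against 1215 to 2550 in the other arrays) and in epidermis and hair follicle markers (13420, against 718 to 3568). In that array 14 of 15 skin markers were at or above the limit, against 9 and 10 in wild type and 5 in knockout replicate 2. Among them Lor, a protein of the cornified layer, read 8.65 against 3.91, 4.11 and 4.01 elsewhere. The part of these markers in the Fgfr2 and Fgfr3 values was not tested. Between the wild-type arrays, replicate 2 was higher in skin markers (3568 against 1061) and lower in luminal markers (1215 against 2260), and there Fgfr2 read 6.65 against 6.80 and Fgfr3 5.70 against 5.66. The other probe sets of both genes lay under the limit, with differences of 0.01 and 0.11 for Fgfr2 and 0.02 for Fgfr3. The epithelial and mesenchymal splice forms were not separated.

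Fgfrl1, a receptor-like protein that binds FGFs but lacks a kinase domain, was level between genotypes, with 10.2 and 10.2 in wild type and, in the knockout, 10.2 and 10.1 and a difference of -0.03 (95% limma interval -0.30 to 0.25). The direction turned to 0.06 after cyclic loess. Its other probe set differed by -0.12, with overlapping genotypes. Fgfr4, a receptor of liver and developing muscle, was under the limit in all 4 arrays, from 4.56 to 4.73, with overlapping genotypes. Its other probe sets, also under the limit, differed by -0.08, -0.04, -0.06 and -0.10. Klb, the co-receptor through which Fgf21 acts on fat cells, read 9.56 and 9.56 in wild type, then 9.88 in knockout replicate 1 but 8.66 in knockout replicate 2. The knockout arrays thus lay on opposite sides of wild type, and the mean difference of -0.29 ± 0.45 (SE, n = 2 per group, limma adjusted p = 0.729) describes neither. Without knockout replicate 1 the Klb difference was -0.90, and without knockout replicate 2 it was 0.33. White fat cell markers summed to 49044 and 48726 in wild type and to 45711 and 39296 in the knockout, lowest in knockout replicate 2, the array with the lowest Klb and with muscle markers at 47813. Of the 11 fat cell markers 4 were lower in both knockout arrays and 1 was higher in both, beside 32.5% and 26.3% of all tested genes. The widest gap was in Lep, the leptin gene, with 10.7 and 10.7 in wild type and, in the knockout, 6.95 and 4.48. The part of the fat cell and muscle markers in the Klb value was not tested.

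**Figure D4:**
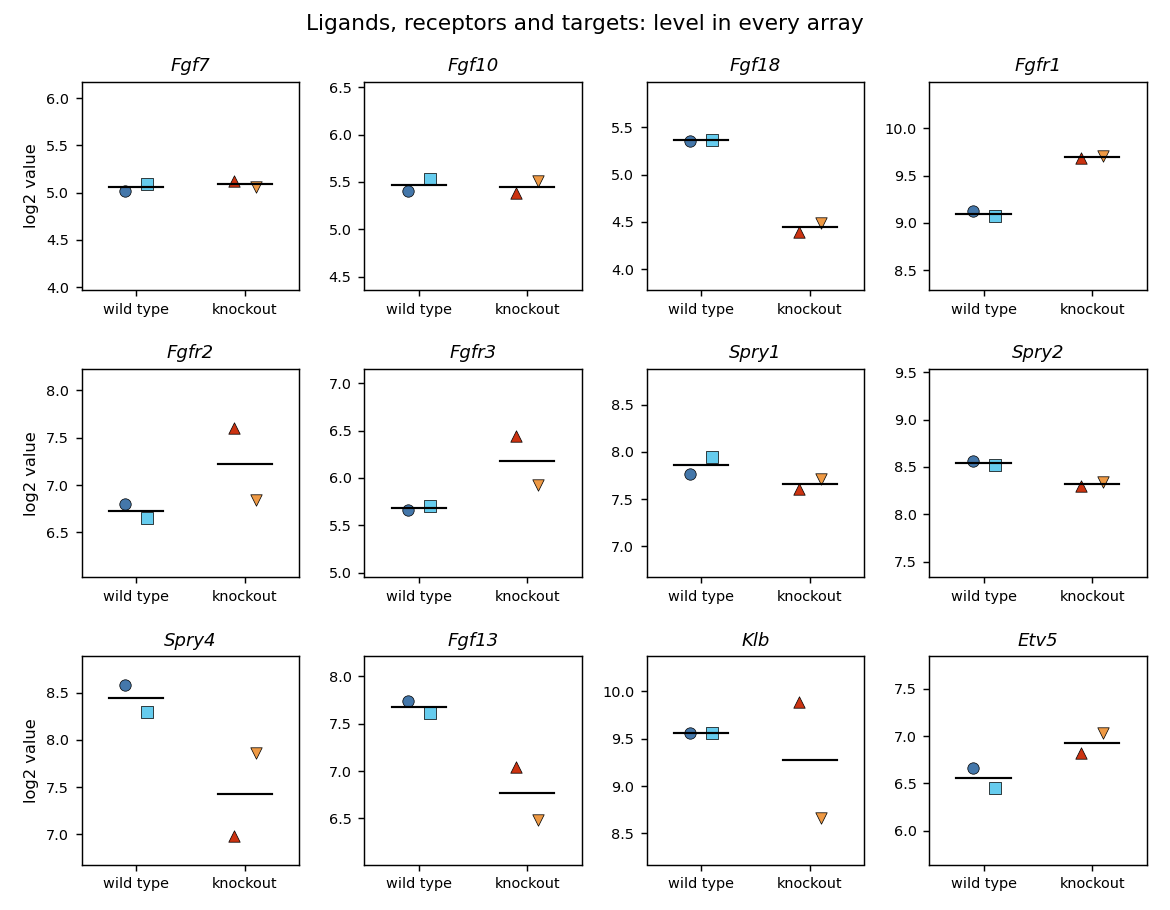
Log2 level of 12 members in every array; horizontal lines are group means of 2 arrays and every panel spans the same height of 2.2 log2 units. Circles and squares are wild-type replicates 1 and 2, upward and downward triangles knockout replicates 1 and 2. Fgf7 and Fgf10 are level, Fgf18 is lower and Fgfr1 higher with little spread, and Fgfr2, Fgfr3, Spry4 and Klb depend on the knockout array.

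The Sprouty genes, whose products block Ras activation downstream of the receptors, were lower in both knockout arrays wherever they reached the limit. Spry1 read 7.77 and 7.95 in wild type and, in the knockout, 7.60 and 7.71, a difference of -0.20 ± 0.12 (SE, n = 2 per group). Spry2 read 8.57 and 8.52 against 8.30 and 8.34, a difference of -0.22 ± 0.09. For Spry2 the arrays of one genotype differed by 0.05 and 0.04, well under the gap between genotypes, while for Spry1 they differed by 0.18 and 0.11. Neither passed, with limma adjusted p = 0.383 for Spry1 and 0.269 for Spry2.

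Spry4 had the widest difference among the tested members. It read 8.58 and 8.30 in wild type and, in the knockout, 6.99 and 7.86, a difference of -1.01 ± 0.34 (SE, n = 2 per group), with a limma adjusted p of 0.216. Both knockout arrays were lower, at -1.45 from the wild-type mean in replicate 1 and -0.58 in replicate 2. The Spry4 difference was thus -1.45 without knockout replicate 2 and -0.58 without knockout replicate 1. Its next brightest probe set read 5.44 and 5.26 against 4.97 and 5.25 and differed by -0.24, and 2 further sets under the limit differed by -0.10 and 0.11, so the size rests on a single probe set. With the mean over probe sets the difference was -0.31. Spry3 was under the limit.

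The Spred proteins inhibit the step from Ras to Raf and bind neurofibromin. Spred1 read 8.90 and 8.88 in wild type and, in the knockout, 8.73 and 8.62, lower in both knockout arrays (-0.21 ± 0.10, SE, n = 2 per group, limma adjusted p = 0.297). Another Spred1 probe set differed by -0.26 with overlapping genotypes and a dimmer one by 0.25 in the opposite direction, so its probe sets disagree. Spred2 read 8.58 and 8.55 against 8.41 and 8.69, with the knockout arrays on either side of wild type and a difference of -0.02 (limma adjusted p = 0.954), and the direction turned to 0.04 with the mean over probe sets and 0.05 after cyclic loess. Spred3 was under the limit.

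Neither MAP kinase phosphatase was lower in both knockout arrays. Dusp6, which dephosphorylates ERK in the cytoplasm, read 9.33 and 9.42 in wild type and, in the knockout, 9.39 and 9.67, with overlapping genotypes and a difference of 0.15 ± 0.14 (SE, n = 2 per group, limma adjusted p = 0.541). Dusp4, its nuclear relative, read 7.51 and 7.40 in wild type, then 7.36 in knockout replicate 1 but 9.17 in knockout replicate 2. Knockout replicate 2, the array with the highest summed skeletal muscle markers, stood 1.71 above the wild-type mean, while knockout replicate 1 was below both wild-type arrays. The difference of 0.80 ± 0.65 had a limma adjusted p of 0.511. The Dusp4 difference was 1.71 without knockout replicate 1 and -0.10 without knockout replicate 2. The muscle markers summed to 47813 in knockout replicate 2 and 3190 in wild-type replicate 2, against 512 in wild-type replicate 1. The part of the muscle markers in the Dusp4 values was not tested.

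Of the Ets factors, Etv5 was higher in both knockout arrays and Etv4 was under the limit, from 3.65 to 3.87. Etv5 read 6.66 and 6.45 in wild type and, in the knockout, 6.82 and 7.04, a difference of 0.38 ± 0.14 (SE, n = 2 per group), or 1.30-fold, with a limma adjusted p of 0.237. The genotypes did not overlap, but the 2 arrays of each genotype differed by 0.21. The 2 other probe sets annotated to Etv5 also match another gene, Scpep1, and were not used. Among the 9 inhibitors and 2 Ets genes, 8 were tested, and of these 4 were lower in both knockout arrays (Spry1, Spry2, Spry4 and Spred1), 1 was higher in both (Etv5) and 3 overlapped (Spred2, Dusp4 and Dusp6). Of all tested genes 32.5% were lower in both knockout arrays and 26.3% higher in both. The differences of these readouts thus had both signs.

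**Figure D5:**
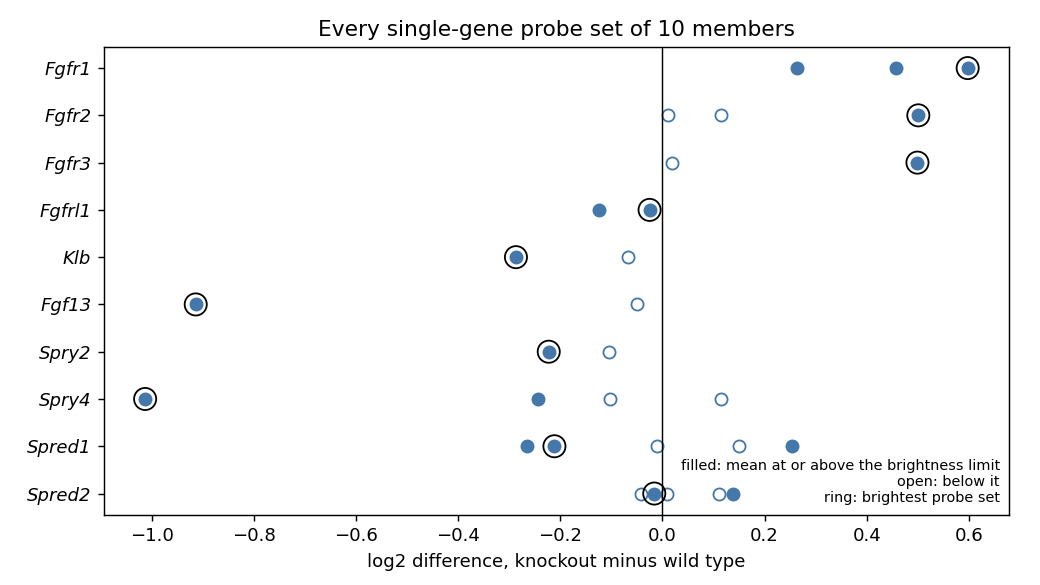
Log2 difference between knockout and wild type for every single-gene probe set of 10 members; filled symbols reach the brightness limit, open ones do not, and a ring marks the probe set used. The 3 probe sets of Fgfr1 lie on the same side at 0.26 to 0.60, while Spry4 has 1 probe set at -1.01 and others between -0.24 and 0.11, and those of Spred1 lie on both sides of 0.

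Other genes of the pathway were read from a list of 56, of which 45 were on the array and 35 reached the limit. None passed over all genes with limma and Benjamini-Hochberg adjustment. At an unadjusted limma p under 0.05, 5 were higher and 7 lower, beside 9.69% and 12.1% of all tested genes. The genotypes did not overlap for 9 higher and 11 lower genes, beside 26.3% and 32.5% of all tested genes. The median difference was -0.07, beside -0.02 over all tested genes. The heparan sulfate carriers, which hold FGFs at the cell surface, went both ways. Sdc4 (syndecan 4) read 7.57 and 7.43 in wild type and, in the knockout, 8.07 and 8.19, higher by 0.63 ± 0.11 (SE, n = 2 per group), and Gpc4 (glypican 4) read 9.04 and 8.91 against 8.42 and 8.19, a difference of -0.67 ± 0.13. Ext1, which polymerises the heparan sulfate chain, read 8.96 and 8.82 against 8.49 and 8.30 (-0.49 ± 0.12).

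Of the signal relay, Ptpn11, the phosphatase Shp2 that couples receptors to Ras, read 10.1 and 10.2 in wild type and, in the knockout, 9.63 and 9.35, a difference of -0.65 ± 0.13 (SE, n = 2 per group). Il17rd, the inhibitor also called Sef, read 5.49 and 5.48 against 5.92 and 6.20, higher by 0.58 ± 0.13, in the opposite direction to the Sprouty genes. Ccnd1, the cyclin D1 gene that growth factor signals induce, read 10.0 and 9.83 against 9.35 and 8.94, a difference of -0.78 ± 0.18. These 6 genes were picked by the smallest p among those whose genotypes did not overlap, so their lack of overlap is no result, and the smallest adjusted p in the list was 0.123.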

How the data were processed

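RNA was labelled from the 3-prime end and hybridised to 4 Affymetrix mouse arrays, per the labels' protocols. The authors' deposited log2 values were made with RMA in affy (submitters' processing notes, no version). That they are log2 follows from their range of 3.16 to 13.7. RMA makes the arrays' distributions alike and so hides any general shift. Precision is limited by the number of arrays.

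Of 45141 probe sets, 28898 had 1 gene in the platform annotation, 551 several and 15692 none. The brightest single-gene probe set stood for each of 17097 genes. Genes averaging 4.94 or more (11078) entered limma 3.58.1 in R 4.3.3 (lmFit, eBayes, no covariate) with Benjamini-Hochberg adjustment over all of them. The fit was also run on simulated data with equal spread in both genotypes, unlike these data. Here the median gap between arrays of a genotype was 0.08 in wild type and 0.21 in the knockout. P-values measure the spread between these samples only.

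The members and lists were chosen with earlier results of these data known. Array values are given for Fgf1, Fgf2, Fgf7, Fgf9, Fgf10, Fgf18, receptors, Klb, tested inhibitors and Ets genes, other tested members without overlap of the genotypes, and 6 further pathway genes (smallest p without overlap). Lor, Lep and the GC box were chosen after the values were seen. Alternatives were other filters, probe set rules, scalings, variance models, array weights, a replicate block and each array left out.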

Additional observations from a re-analysis of the deposited data

How the results depend on the processing

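The limits are 2 arrays per genotype and ligand values near the floor of the array. With all 4 arrays no setting called any member or any gene. The fit without knockout replicate 1 called the most genes, but the fit without knockout replicate 2 called the most members. With 1 array left out the count of called genes ranged from 0 to 4180 and that of called members from 0 to 5, the calls arising only without a knockout array (Fgf13, Fgfr1, Klb and Dusp4 without knockout replicate 1; Fgf13, Fgfr1, Fgfr2, Fgfr3 and Spry4 without knockout replicate 2). Members with an unadjusted limma p under 0.05 numbered 3, 6 with no filter (20 dim members added) and 1 to 9 with 1 array left out. The median member difference was -0.11 with the 75th percentile filter, which tested 12 members, and -0.08 to 0.04 with 1 array left out. Apart from leaving out an array, 3 of 148 member differences changed sign: Fgfrl1 (0.0581) and Spred2 (0.0465) after cyclic loess and Spred2 (0.0400) with the mean over probe sets; the cause was not tested. With 1 array left out, signs turned for members near 0 or with unlike knockout arrays: Fgf7 ranged from -0.0026 to 0.0681, Fgf10 from -0.0804 to 0.0445, Fgf1 from -0.14 to 0.11, Fgfrl1 from -0.0791 to 0.0291, Klb from -0.90 to 0.33, Spred2 from -0.16 to 0.13 and Dusp4 from -0.10 to 1.71. Without probe sets that match several transcripts Fgfr1 differed by 0.26, and Fgfr2 was left with a dimmer probe set under the limit. The replicate number was not shown to pair the samples (correlation of same-numbered deviations r = -0.09 across genes). With it as a replicate block 0 members passed and 2 had an unadjusted limma p under 0.05, beside 1836 of all 11078 tested genes.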
